A study of Mus musculus with 117 samples.

Results

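The chromatin of 10 genes of fatty acid synthesis was examined in mouse hepatocytes. The genes are Srebf1, Mlxipl, Fasn, Acaca, Acly, Scd1, Elovl6, Me1, Thrsp and Pnpla3, out of 21631 protein-coding genes of the autosomes and X. They were chosen by name for their role in lipogenesis. No chromatin value enters the rule, but earlier results of these data were known when the list was made. Each gene was taken from its start to its end in assembly GRCm38 with 2 kb added on both sides, which gave 3600 bins of 200 bp in all.

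Hepatocytes, which make up most of the liver's mass, came from females 12 weeks old of 9 inbred strains, and the labels name no treatment. CAST/EiJ, PWK/PhJ and WSB/EiJ are derived from wild mice, and C57BL/6J, DBA/2J, A/J, NZO/HlLtJ, NOD/ShiLtJ and 129S1/SvImJ are classical strains. Per strain, chromatin immunoprecipitation sequencing (ChIP-seq) covered H3K4me1, H3K4me3, H3K27ac and H3K27me3 in 3 mice, with 1 input library, 13 libraries in each strain and 117 in all. The authors' deposited data combine a strain's libraries in 1 segmentation, which gives every bin 1 of 14 numbered states. The mark content of a state is not given in the sources used here, so a state number is only a name. A strain is 1 value, spread is between strains, and mice of a strain cannot be told apart. The sequencing depth behind the segmentations is unknown. 

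Fatty acid synthesis turns surplus carbohydrate into stored fat, and the liver is one of its main sites. Acly cleaves citrate to acetyl-CoA, Acaca carboxylates it to malonyl-CoA, and Fasn joins these units into palmitate with NADPH that Me1 helps to supply. Elovl6 and Scd1 then lengthen and desaturate the product. Transcription of these genes is driven by SREBP-1, the product of Srebf1, which responds to insulin, and by ChREBP, the product of Mlxipl, which responds to sugars.

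Promoter sequences were available for 9 of the 10 genes, with 13 annotated starts. The 200 bases before 6 of these starts are printed, picked by their states. The Srebf1 internal and Mlxipl downstream starts were in state 3 in all 9 strains, and those of Fasn and Thrsp in most strains. The Mlxipl upstream start and that of Pnpla3 were in state 1 in most or all strains. Some starts not printed had like states: Acly and the right-hand Me1 start were in state 3 in all 9 strains, and Elovl6 in 6. The sequences are RefSeq's, of build GRCm38.p6, read 5′ to 3′ towards the start, and are those of the reference genome, not of each strain. Capitals mark matches on either strand to 4 motifs, namely the sterol response element TCACNCCAC bound by SREBP, the E-box CACGTG bound by ChREBP and other factors, the CCAAT box CCAAT and the GC box GGGCGG.
Srebf1 internal start, chr11:60210472-60210671, minus strand: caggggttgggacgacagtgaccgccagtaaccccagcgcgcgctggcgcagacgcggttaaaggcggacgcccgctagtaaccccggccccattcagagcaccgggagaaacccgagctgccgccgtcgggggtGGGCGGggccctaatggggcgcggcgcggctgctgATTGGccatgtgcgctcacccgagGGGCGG
Mlxipl upstream start, chr5:135089690-135089889, plus strand: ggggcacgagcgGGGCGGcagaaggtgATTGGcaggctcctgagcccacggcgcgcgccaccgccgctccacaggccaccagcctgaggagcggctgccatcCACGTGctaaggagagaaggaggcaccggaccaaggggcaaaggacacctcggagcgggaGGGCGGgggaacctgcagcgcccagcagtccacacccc
Mlxipl downstream start, chr5:135106691-135106890, plus strand: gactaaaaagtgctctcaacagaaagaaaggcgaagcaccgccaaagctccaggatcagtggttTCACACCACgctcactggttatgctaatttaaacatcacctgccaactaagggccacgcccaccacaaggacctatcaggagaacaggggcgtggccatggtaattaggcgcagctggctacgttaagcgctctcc
Fasn, chr11:120824548-120824747, minus strand: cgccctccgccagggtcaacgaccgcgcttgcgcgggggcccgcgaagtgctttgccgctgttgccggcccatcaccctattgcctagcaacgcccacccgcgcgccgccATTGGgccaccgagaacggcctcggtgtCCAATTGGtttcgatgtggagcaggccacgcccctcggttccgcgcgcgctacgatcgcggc
Thrsp, chr7:97417551-97417750, minus strand: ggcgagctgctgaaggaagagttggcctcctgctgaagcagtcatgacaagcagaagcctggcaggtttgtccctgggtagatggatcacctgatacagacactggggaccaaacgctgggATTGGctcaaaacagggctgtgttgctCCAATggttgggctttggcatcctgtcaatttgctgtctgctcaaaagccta
Pnpla3, chr15:84167616-84167815, plus strand: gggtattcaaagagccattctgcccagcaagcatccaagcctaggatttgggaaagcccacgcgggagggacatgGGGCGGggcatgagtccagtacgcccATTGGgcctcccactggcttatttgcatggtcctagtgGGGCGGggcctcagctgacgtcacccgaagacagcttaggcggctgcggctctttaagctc

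Searched over the 250 bases before each start, the sterol response element matched at 1 of the 13 starts, the Mlxipl downstream start, against 1.02% of 21045 starts of all genes. The E-box also matched at 1 of 13, the Mlxipl upstream start, against 6.70% of all starts. A CCAAT box matched at 7 of 13 starts (35.6% of all), and in Fasn CCAAT overlaps its reverse complement ATTGG. A GC box matched at 6 of 13 (43.1% of all). The Fasn window held 33 CpG dinucleotides and that of the Srebf1 internal start 30, against a median of 10 over all starts. The Mlxipl upstream start held 18 and the Mlxipl downstream start 8, while Thrsp held 2 and Pnpla3 11. A match is a description of the letters and does not show binding.

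The label of the cells was checked on marker genes. By the test described below, the share of state 1 was above that of the mean gene for 8 of 8 hepatocyte markers. Their means over strains ran from 29.6% of bins in Hnf4a to 67.4% in Apoa1, and Cyp2e1 ranged from 0 to 50% over strains. State 1 was above the mean gene for 0 of 6 endothelial, 0 of 6 Kupffer and leukocyte and 0 of 5 stellate markers. It was above for 1 of 4 bile duct markers (Sox9, 15.97%). Of all genes 25.7% were called higher, and a count near that share is no result about the markers. State 1 was at 0 in every strain at Kdr, Cdh5, Ptprc, Lrat, Col1a1 and Krt19, which are among the markers of those other cells. It was present in every strain at Stab2 (5.11%, 1.17 to 8.53% over strains), above the median gene (2.37%). Means above 0 were also found at Csf1r (1.49%), Reln (0.675%), Pecam1 (0.648%) and Cd3e (0.439%). Like Stab2, these were called lower than the mean gene. Fat cells also make fatty acids: of 5 adipocyte markers, Adipoq was higher in state 1, at 16.4% (3.85 to 23.1% over strains), while Cfd was at 0 and Lep at 1.37%. In state 2, 4 of the 5 were higher (Adipoq, Lep, Plin1 and Cfd), against 18.8% of all genes. In state 4, 3 were higher (Adipoq, Plin1 and Cfd, the last at 51.1%), against 16.6% of all genes. Of the 8 hepatocyte markers, 5 were higher in each of these states. Apoa1 and Cyp2e1 were lower in state 2 (68.4% of all genes), and Apoa1 and Hnf4a in state 4 (65.7%). The endothelial markers Pecam1 and Stab2 and the macrophage marker Csf1r were also higher in both states 2 and 4, with state 4 at 26.7%, 20.1% and 9.62%. These were 2 of 6 endothelial and 1 of 6 Kupffer and leukocyte markers, and 0 of 5 stellate and 0 of 4 bile duct markers were higher in either state. Their part in the values of the lipogenic genes was not tested.

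States 1, 2 and 4 covered most of the lipogenic genes. In the mean of the 10 genes, state 1 held 26.6% ± 1.78 of the bins (SD, n = 9 strains), state 2 held 19.1% ± 5.36 and state 4 held 21.4% ± 5.04. Over all protein-coding genes the same means were 8.72% ± 0.565, 3.51% ± 0.569 and 4.25% ± 0.946. State 14, the most widespread state, held 22.5% ± 3.58 in the same mean of the 10 genes and 55.4% ± 2.41 in that of all genes. Counted by bins, where long genes weigh more, it held 12569 of 32400 in the lipogenic genes. State 4 came next with 6527. State 13 held 13.3% ± 0.878 over all genes, but only 6 of the 32400 bins counted over strains in the lipogenic genes, all of them in Acaca. States 5, 7, 10, 11 and 12 were seen in none of the 10 genes in any strain.

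**Figure D1:**
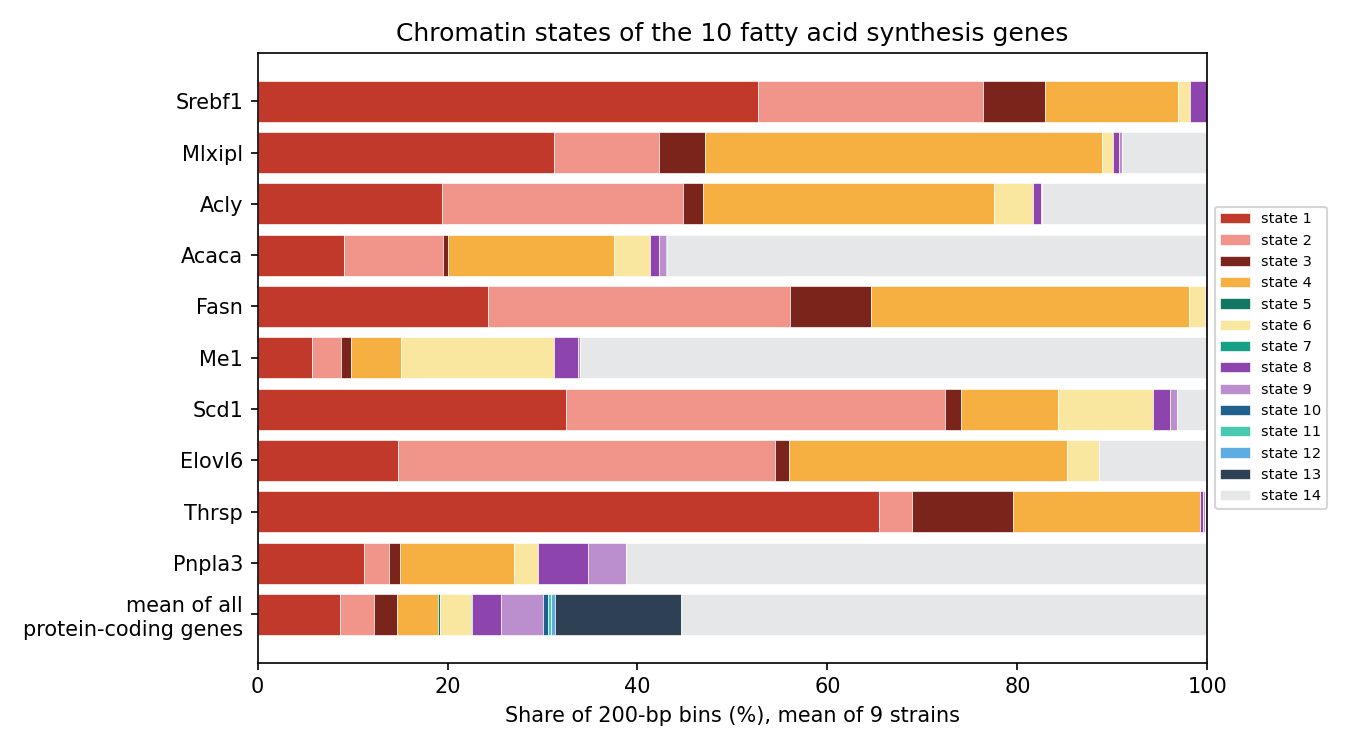
Share of 200-bp bins in each of the 14 states (x axis, percent, mean of 9 strains) for the 10 genes and, in the lowest bar, for the mean protein-coding gene. Srebf1 and Fasn have no state 14, and Acaca, Me1 and Pnpla3 have more of it than of any other state.

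Each gene's share was set against that strain's mean over all protein-coding genes by exact permutation of signs across the 9 strains (two-sided), whose smallest p is 0.0039. P-values were adjusted by the Benjamini-Hochberg method over all 21631 genes, and a gene was called at an adjusted p of at most 0.05. The mean lies above the median gene (8.72 against 2.37% in state 1), and most genes are called, more of them lower than higher. Of the 10 lipogenic genes, 8 were higher in state 1, against 25.7% of all genes, and 1, Me1, was lower, against 66.4%. In state 2, 7 were higher, against 18.8% of all genes, and 0 were lower, against 68.4%. In state 4, 7 were higher, against 16.6%, and 0 were lower, against 65.7%. Outside state 14, 7 were higher, against 35.8%, and Me1 alone was lower, against 48.5%.

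State 3 gave a mixed picture. Srebf1, Mlxipl, Fasn and Thrsp were higher, 4 of 10 against 23.2% of all genes, and Acly, Acaca, Me1, Elovl6 and Pnpla3 were lower, 5 of 10 against 66.8%. State 3 held 38.2% ± 1.14 of the bins at annotated starts of all genes, against 2.48% ± 0.261 of the mean gene (SD, n = 9), and its share in the longest of the 10 genes, Acaca (272017 bp), was 0.620%. Set against the median gene in place of the mean, 9 of the 10 were higher, as were 47.5% of all genes.

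Of the regulators, Srebf1 (chr11:60199084-60224186) was covered by state 1 over much of its length. Its share of state 1 was 45.9% in the lowest strain, C57BL/6J, 53.4% in the median and 59.6% in the highest, 129S1/SvImJ. That is 44.0 ± 4.78 points above the mean gene (SD, n = 9; exact permutation test, adjusted p = 0.0046), higher in 9 of 9 strains. State 14 was absent from the span in every strain. State 2 ranged from 12.3% in NOD/ShiLtJ to 36.3% in C57BL/6J, with PWK/PhJ at 34.3% and WSB/EiJ at 32.9%. Its share of state 4, higher than the mean gene with padding, was not called without it (4.71 points, exact permutation test, adjusted p = 0.056). Where Srebf1 overlaps its neighbour Rai1, a bin has 1 state for both genes.

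Srebf1 has 3 annotated starts, and they differed. At the internal start (chr11, position 60210471) the bin was in state 3 in 9 of 9 strains. That state 3 segment was 600 bp long in C57BL/6J, CAST/EiJ and WSB/EiJ, 1200 bp in A/J, 1400 bp in 129S1/SvImJ, DBA/2J and NZO/HlLtJ, 1600 bp in NOD/ShiLtJ and 1800 bp in PWK/PhJ. CAST/EiJ had another 600 bp of state 3 close by, at chr11:60209001-60209600. At the start at position 60220627 the bin was in state 1 in all 9 strains, with a state 3 segment of 200 to 400 bp within 1 kb. At the start at 60222581 it was in state 1 in 8 strains and in state 3 in DBA/2J.

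Mlxipl (chr5:135089890-135139768) had more state 4 than any other state in the mean of the strains. In C57BL/6J state 1 held slightly more, 34.1%. State 4 held 33.3% of its bins in C57BL/6J, 42.2% in the median strain and 48.9% in 129S1/SvImJ and WSB/EiJ. It was 37.6 ± 5.16 points above the mean gene (SD, n = 9; exact permutation test, adjusted p = 0.0056) and higher in 9 of 9 strains, at the percentile 99.5 of all genes. At the downstream start (position 135106891) the bin was in state 3 in every strain, in a segment of 1800 bp in 5 strains and 2400 bp in CAST/EiJ, DBA/2J, NZO/HlLtJ and PWK/PhJ. At the upstream start (position 135089890) it was in state 1 in 7 strains, and in a single 200-bp bin of state 3 in C57BL/6J and PWK/PhJ.

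The stretch between the Mlxipl starts, 84 bins, separated the strains. State 14 held 27 of these bins in NOD/ShiLtJ, 31 in NZO/HlLtJ and 24 in PWK/PhJ, and 0 in the other 6 strains. Elsewhere in the span, state 14 also held 30 bins in C57BL/6J, 29 in A/J, 16 in WSB/EiJ and 10 in DBA/2J. It was absent from the whole span in 129S1/SvImJ and CAST/EiJ. State 4 held 10 of them in NOD/ShiLtJ and NZO/HlLtJ, the lowest, and 32 in WSB/EiJ, the highest.

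Of the enzymes that make palmitate, Acly (chr11:100476352-100528000) combined state 4 and state 2. State 4 ranged from 17.9% in A/J through a median of 29.4% to 45.5% in CAST/EiJ. NOD/ShiLtJ, at 18.3%, lay next to A/J. These strains also had the most state 14, 35.8% in A/J and 33.7% in NOD/ShiLtJ, against 5.02 to 22.6% in the other 7. The start (position 100528000) was in state 3 in all 9 strains, in a segment of 400 bp in CAST/EiJ and 600 to 1000 bp elsewhere. The longest run in which NOD/ShiLtJ departed from at least 7 of the other 8 strains was 3600 bp (chr11:100498601-100502200), state 14 in place of state 4.

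Acaca (chr11:84129635-84401651) was largely in state 14, at 50.7% in 129S1/SvImJ, 57.4% in the median strain and 64.6% in NOD/ShiLtJ. Its share of state 1, 9.08% ± 1.11 (SD, n = 9), was 0.354 points above the mean gene, which did not pass (exact permutation test, adjusted p = 0.52, higher in 5 of 9 strains). State 4, at 8.47% in NOD/ShiLtJ to 23.3% in 129S1/SvImJ, was higher than the mean gene in 9 of 9 strains. The annotated start used (position 84195438, plus strand) lies inside the gene, and the source used here gave no other start for Acaca. It was in state 1 in 5 strains and in state 2 in 4, with no state 3 within 1 kb. The longest state 3 segment began at 84179401 in all 9 strains and ended at 84180400 in A/J, CAST/EiJ and NOD/ShiLtJ and at 84180600 in the other 6. Part of the span is shared with Tada2a.

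Fasn (chr11:120805958-120825166) had no state 14 in any strain. State 1 lay mainly at its right-hand, promoter end, and the remainder of the gene was mostly in state 2 or state 4. State 4 held 21.4% in DBA/2J, 30.8% in the median strain and 53.0% in CAST/EiJ. State 2 held 18.8% in A/J and NOD/ShiLtJ, 30.8% in the median and 48.7% in PWK/PhJ, which is 28.2 ± 9.57 points above the mean gene (SD, n = 9; exact permutation test, adjusted p = 0.0052). Exchanges between states 2 and 4 made up 56.2% of all disagreement between strains in Fasn. At the start (position 120824547) the bin was in state 3 in 8 strains, in segments of 1200 bp in A/J and CAST/EiJ to 2600 bp in DBA/2J. In WSB/EiJ it was in state 1, and an 800-bp segment of state 3 directly adjoined that bin. The padding of Fasn reaches into Ccdc57.

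Me1 (chr9:86581363-86695914) was the only one of the 10 called lower in state 1. State 1 held 3.54% in A/J, 5.89% in the median strain and 8.25% in PWK/PhJ, 3.02 ± 1.54 points below the mean gene (SD, n = 9; exact permutation test, adjusted p = 0.0089), lower in 8 of 9 strains. The gene lay above the median gene, whose share of state 1 was 2.37%. State 6 held 10.8% in NZO/HlLtJ to 23.7% in C57BL/6J. State 14 held 56.7% in PWK/PhJ to 75.3% in CAST/EiJ. The start at the right-hand end (position 86695914) was in state 3 in all 9 strains, in segments of 600 to 1000 bp, while the internal start (position 86687277) was in state 6 in 5 strains, state 2 in 3 and state 4 in 1.

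Taking the 9 genes with an annotated start, 4 (Srebf1, Mlxipl, Acly and Me1) had state 3 at a start in all 9 strains. This compares with 33.9% of the 17274 genes with an annotated start. State 1 or 3 in all strains was found for 8 of the 9 genes, against 43.9% of all. Acaca, which met neither count, was scored only at a start inside the gene, since no other was available. A gene with several starts has more chances in both counts. No test was made on either count.

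**Figure D2:**
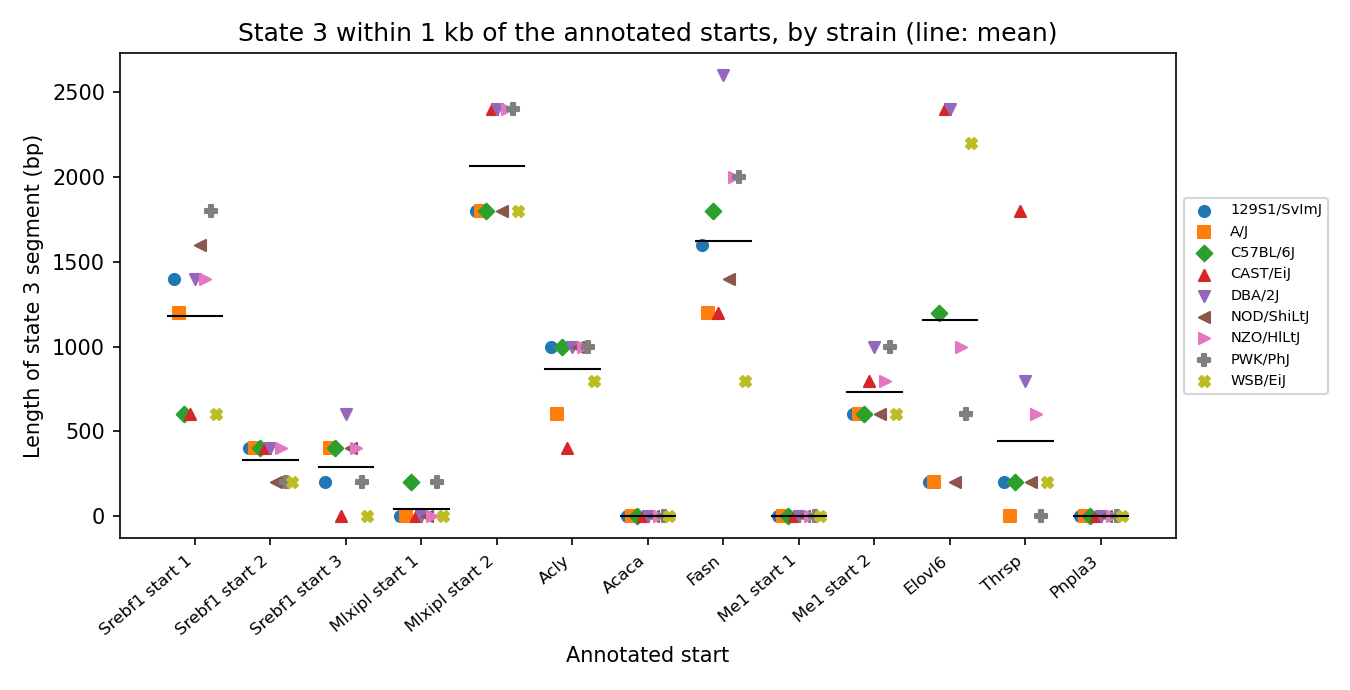
Length in bp of the nearest state 3 segment within 1 kb of each of the 13 annotated starts (y axis, 0 where there was none) in each of the 9 strains (symbols), with the mean as a line. Further state 3 segments are not counted. Starts are numbered from the left along the chromosome. All strains lie at 1800 or 2400 bp at the Mlxipl downstream start, while Elovl6 ranges from 200 to 2400 bp.

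Of the enzymes that modify palmitate, Scd1 (chr19:44394450-44407709), which encodes the desaturase, differed most between strains. State 2 held 14.9% of its bins in A/J, 18.4% in NOD/ShiLtJ, 20.7% in WSB/EiJ and 26.4% in CAST/EiJ. It held 47.1% in DBA/2J, 50.6% in 129S1/SvImJ, 56.3% in NZO/HlLtJ, 57.5% in C57BL/6J and 67.8% in PWK/PhJ. No strain lay between 26.4% and 47.1%.

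What replaced state 2 in Scd1 differed among the 4 low strains. In A/J and NOD/ShiLtJ it was state 6, with 35 and 31 of the 87 bins. In CAST/EiJ it was state 4, with 38 bins, in a 7600-bp segment at chr19:44396001-44403600. WSB/EiJ had 24 bins of state 4 and 14 of state 14. In PWK/PhJ a single state 2 segment ran 11200 bp from the left edge of the span (chr19:44392401-44403600), against 2200 bp for the longest in NOD/ShiLtJ. Over the strains, state 2 was 36.5 ± 19.6 points above the mean gene (SD, n = 9; exact permutation test, adjusted p = 0.0052), higher in 9 of 9. State 1 held 23.0% in A/J to 46.0% in 129S1/SvImJ and was present towards the right-hand end of the span in each strain. NOD/ShiLtJ also had 2 bins of it near the left end (chr19:44394601-44395000).

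**Figure D3:**
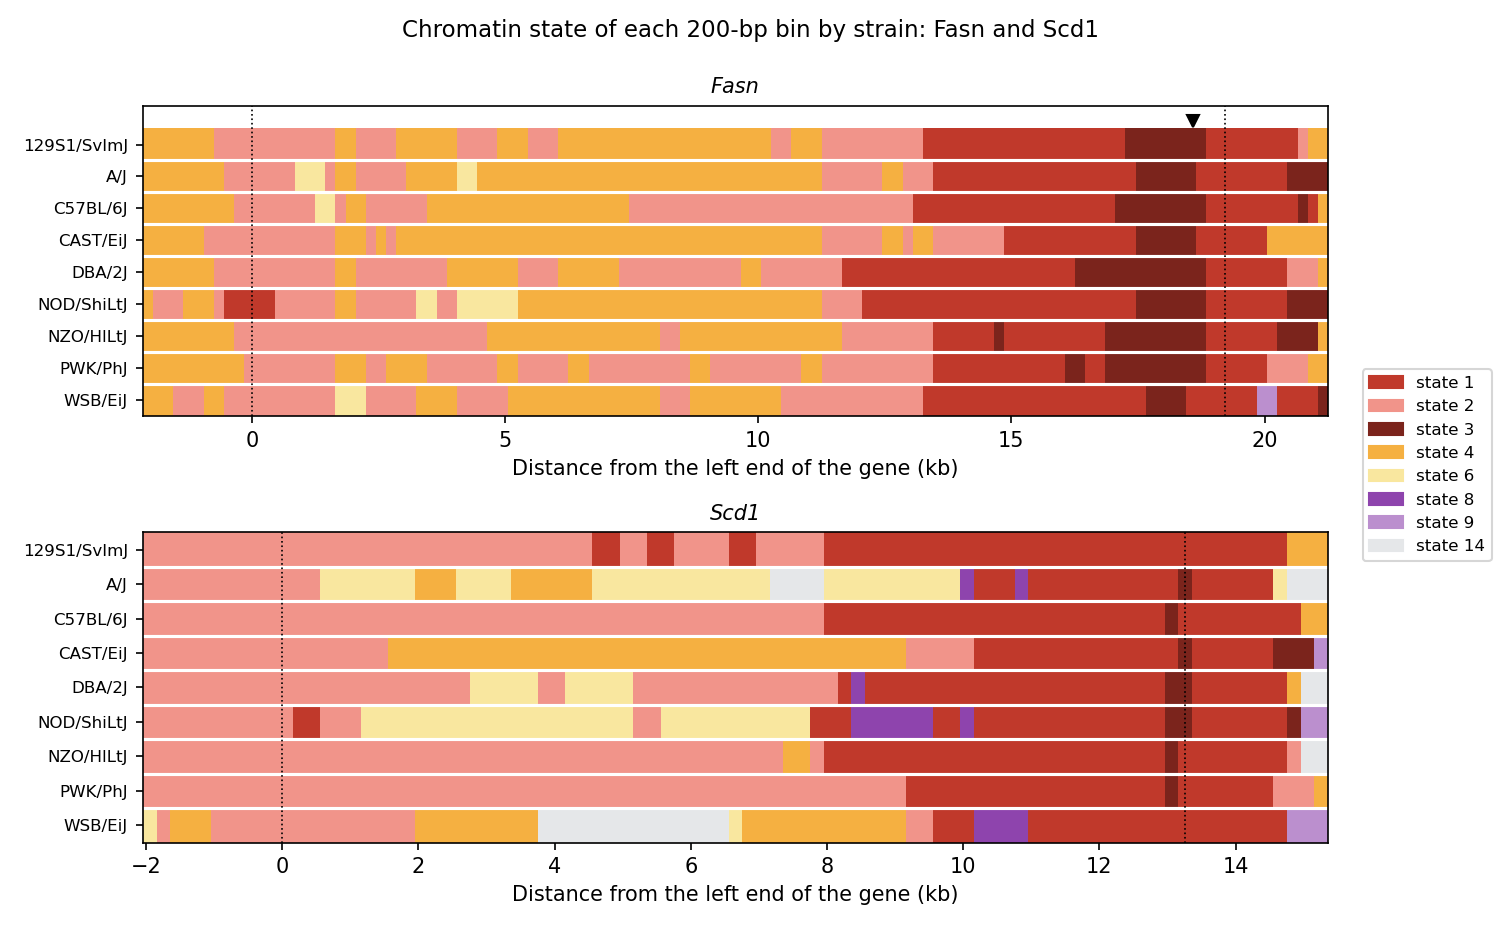
State of each 200-bp bin (colour) along Fasn and Scd1 in each strain (rows), against distance in kb from the left end of the gene. Dotted lines mark the gene's ends and the triangle an annotated start. In Fasn states 2 and 4 alternate left of the promoter, and in Scd1 A/J, CAST/EiJ, NOD/ShiLtJ and WSB/EiJ lack most of the state 2 block of the other 5 strains.

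Elovl6 (chr3:129532386-129638495), the elongase, was mostly in states 2 and 4. State 2 held 26.8% in CAST/EiJ, 37.5% in the median strain and 52.4% in C57BL/6J, 36.1 ± 7.88 points above the mean gene (SD, n = 9; exact permutation test, adjusted p = 0.0052). State 4 was lowest in NOD/ShiLtJ, at 14.9%, and highest in CAST/EiJ, at 44.8%. State 14 was highest in NOD/ShiLtJ, at 25.5%, and in A/J, at 20.5%, with 4.17 to 11.6% in the other 7 strains. The start (position 129532386) was in state 3 in 6 strains and in state 1 in 129S1/SvImJ, A/J and NOD/ShiLtJ, which had 200 bp of state 3 nearby. These strains also had 600 bp of state 3 further on, at chr3:129533601-129534200. Among the 6, the segment at the start ran from 600 bp in PWK/PhJ to 2400 bp in CAST/EiJ and DBA/2J. PWK/PhJ had another 1000 bp at chr3:129533401-129534400. The segment of 2400 bp in CAST/EiJ and DBA/2J spans these further stretches.

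Thrsp (chr7:97412933-97417550), which encodes the thyroid hormone responsive protein Spot 14, had the largest mean share of state 1 among the 10 genes, 65.4%, although in CAST/EiJ Srebf1 had more, 52.1%. In Thrsp state 1 held 50% in CAST/EiJ, 65.9% in the median strain and 75% in 129S1/SvImJ, 56.7 ± 7.44 points above the mean gene (SD, n = 9; exact permutation test, adjusted p = 0.0046). Its state 3 was variable, from 0 in PWK/PhJ to 22.7% in CAST/EiJ and 27.3% in DBA/2J. At the start (position 97417550) 5 strains had state 3 and 4 had state 1, and the state 3 segment was 1800 bp in CAST/EiJ, 800 bp in DBA/2J, 600 bp in NZO/HlLtJ and at most 200 bp in the other 6. The span holds 44 bins, and much of it is padding. Without the padding, its share of state 4 relative to the mean gene was -0.865 points and was not called, where it was called higher with padding.

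Pnpla3 (chr15:84167776-84189521), which encodes a lipid droplet protein of the patatin-like phospholipase family, held the highest divergence of any strain from the others at the 10 genes, 64.2% of bins in PWK/PhJ. In PWK/PhJ 75 of its 130 bins (57.7%) were in state 4. The other strains had 0 in A/J, 5 in 129S1/SvImJ, NZO/HlLtJ and WSB/EiJ, 11 in NOD/ShiLtJ, 12 in C57BL/6J, 13 in DBA/2J and 15 in CAST/EiJ. The PWK/PhJ segment ran 13800 bp, at chr15:84172201-84186000, where the longest state 4 segment of any other strain was 2000 bp, in CAST/EiJ. PWK/PhJ departed from at least 7 of the other 8 strains over a run of 8400 bp (chr15:84172001-84180400), which was in state 14 in those strains.

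At its promoter end the strains shared a state. The Pnpla3 start (position 84167816) was in state 1 in all 9 strains, and no strain had state 3 within 1 kb. State 1 held 8.46% in WSB/EiJ, 10.8% in the median strain and 14.6% in C57BL/6J, 2.48 ± 2.05 points above the mean gene (SD, n = 9; exact permutation test, adjusted p = 0.0089), higher in 8 of 9 strains. Outside state 14 its difference from the mean gene did not pass with all strains (exact permutation test, adjusted p = 0.46). Without PWK/PhJ it was 12.0 points lower, with an adjusted p of 0.010 in the same exact permutation test.

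**Figure D4:**
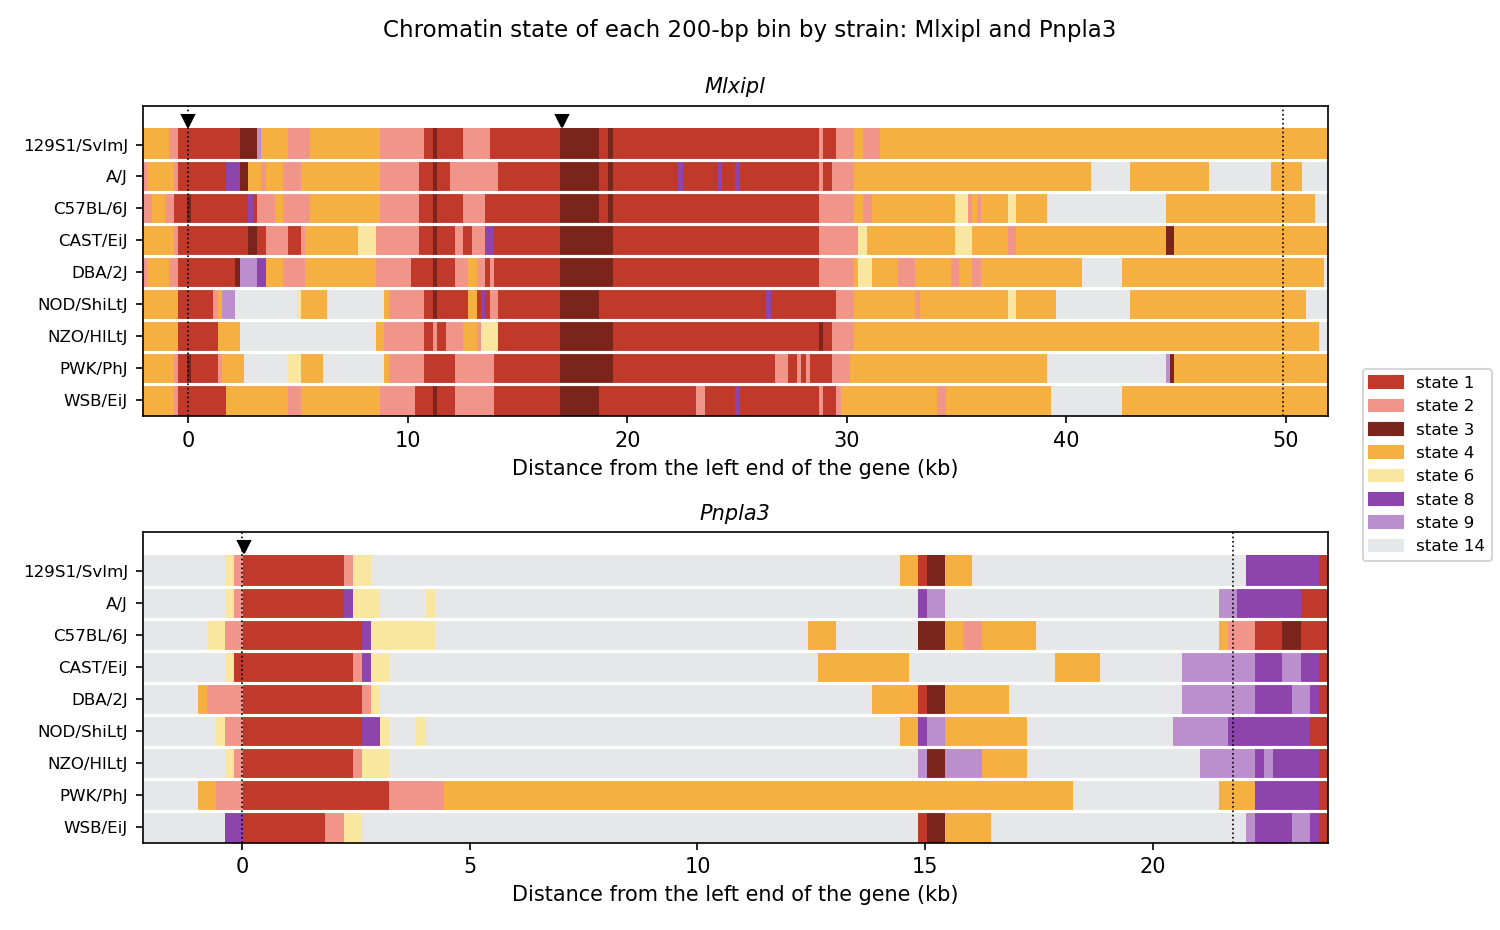
State of each 200-bp bin (colour) along Mlxipl and Pnpla3 in each strain (rows), against distance in kb from the left end of the gene. Triangles mark annotated starts and dotted lines the gene's ends. The Mlxipl downstream start lies in state 3 in all strains, and state 4 fills most of Pnpla3 in PWK/PhJ only among the 9 strains.

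How far the strains disagreed was measured as divergence, the share of a gene's bins in different states, averaged over the 36 pairs of strains. It is a description with no test. Scd1 had 43.9%, Acly 37.1%, Elovl6 35.2%, Fasn 34.6% and Pnpla3 32.3%, all above the upper quartile of all genes, 28.9%. Srebf1 had 27.4%, Mlxipl 25.3%, Thrsp 22.7%, Me1 21.1% and Acaca 20.6%. All of these 10 genes lay above the median gene, 19.7%, and 5 of 10 above the upper quartile, which 25% of all genes exceed by construction.

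The median divergence of the 10 genes, 29.9%, was close to that of the 5560 genes called higher in state 1, 28.9%, a set chosen for this comparison after the values had been seen. It moved with the measure. Over bins outside state 14 in at least 1 strain it was 34.9%, with 34.5% for all genes. Without PWK/PhJ it was 26.3%, with 18.6% for all genes.

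**Figure D5:**
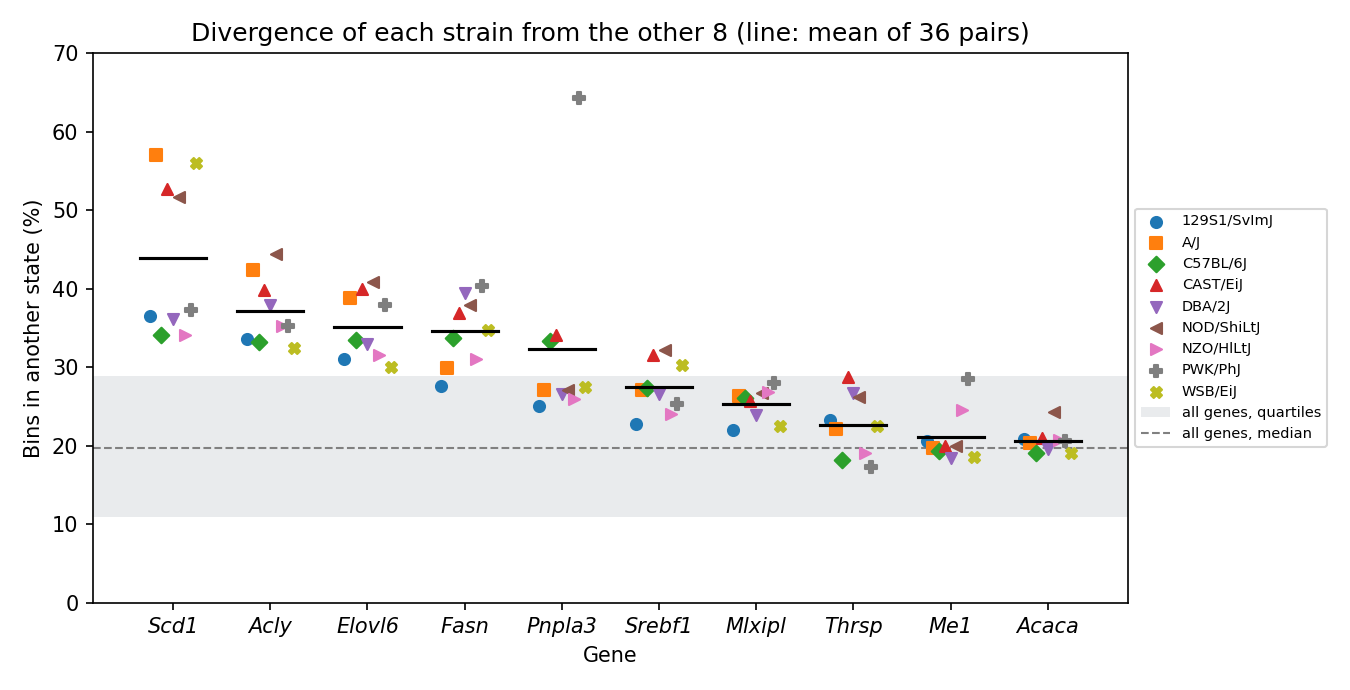
Mean share of bins (y axis, percent) in which each strain (symbols) differed in state from the other 8, for the 10 genes ordered by their mean over 36 pairs (line). The shaded band spans the quartiles of all protein-coding genes, 10.9 to 28.9%, and the dashed line is their median. PWK/PhJ lies far above the other strains at Pnpla3, and 4 strains lie above the other 5 at Scd1.

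The states that replaced each other were counted next. Exchanges between states 4 and 14 made up 33.5% of all disagreement in the 10 genes, between 2 and 4 17.0%, between 1 and 2 13.5% and between 2 and 6 8.87%. Over all genes the exchange of states 13 and 14 led, with 37.1%, followed by 4 and 14 with 14.6%. Between states 1 and 3 it was 2.80% in the 10 genes, although in Thrsp it was 41.2%. These shares are descriptions, and long genes weigh more in them.

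Some strains were extreme at several of the genes. NOD/ShiLtJ had the lowest mean share of state 4 over the 10 genes, 13.98%, and of state 2, 11.9%, with A/J next in state 2 at 12.7%. CAST/EiJ had the highest of state 4, 31.4%. Over all protein-coding genes NOD/ShiLtJ was also lowest in state 4 (2.51%) and in state 2 (2.52%), and CAST/EiJ highest in state 4 (5.44%). The part of these whole-genome differences in the values of the 10 genes was not tested.

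CAST/EiJ was highest in state 4 at 5 of the 10 genes, Srebf1, Acly, Fasn, Scd1 and Elovl6. PWK/PhJ was highest in state 2 at 5, Acaca, Fasn, Me1, Scd1 and Pnpla3. C57BL/6J was highest in it at 4, Srebf1, Mlxipl, Elovl6 and, level with DBA/2J, Acly. Over all genes C57BL/6J had the highest mean share of state 2, 4.25%, with PWK/PhJ at 3.97%. How often each strain is highest among all genes was not counted. NOD/ShiLtJ was the most divergent strain at Srebf1, Acly, Acaca and Elovl6, and PWK/PhJ at Mlxipl, Fasn, Me1 and Pnpla3. Over all genes PWK/PhJ had the highest mean divergence from the other strains, 24.4%, and NOD/ShiLtJ the next, 21.9%.

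The 38 other genes of lipogenesis and its control were scored in the same way, and a share near that of all genes called is no result about the list. Of these, 29 were higher than the mean gene in state 1 and 5 lower, against 25.7% and 66.4% of all genes. In state 2, 25 were higher and 7 lower, against 18.8% and 68.4%. In state 3, 21 were higher and 14 lower, against 23.2% and 66.8%. In state 4, 19 were higher and 11 lower, against 16.6% and 65.7%. Outside state 14, 34 were higher and 2 lower, against 35.8% and 48.5%. By role, state 1 was higher at 10 of 12 regulators, 4 of 8 genes of precursor supply, 8 of 10 genes of elongation, desaturation and related steps, and 7 of 8 genes of glycerolipid assembly. The list's median share of state 1 was 33.1%, against 21.9% for the 10 genes and 2.37% for all genes.

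Their divergence spanned a wide range. The highest were Pklr, the liver pyruvate kinase, at 47.9%, Elovl3, an elongase, at 47.4%, Mlx, the partner of ChREBP, at 44.1%, and Lpin1, a phosphatidate phosphatase, at 42.6%. The lowest were Nr1h2, which encodes the oxysterol receptor LXR-beta, at 14.2%, Dgat2, which makes triglyceride, at 12.1%, Scd2, a desaturase, at 8.49%, and the X-linked G6pdx, which yields NADPH, at 7.77%. Scd2 had no bin in states 1 to 4 in any strain, where Scd1 had 32.4% ± 7.73 in state 1 alone (SD, n = 9). The median of the list was 28.4%, and 17 of 38 lay above the upper quartile of all genes.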

How the data were processed

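ChIP-seq libraries of 4 histone marks and input from hepatocytes of 9 strains were grouped by the strain in their labels. The deposited values are categories, not a count, signal or score: per the file headers and columns, each strain has 1 segmentation of the genome into 14 numbered states in steps of 200 bp, and the score column holds 0. The submitters' processing notes name mm10, FastQC 0.11.5 and MACS 1.4.2. The segmentation tool is not given in the sources used here, and depth is unknown. A file joining all strains was byte for byte the strain files and was not used otherwise.

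Gene positions, starts and promoter sequences were RefSeq's for GRCm38.p6, whose chromosomes mm10 shares. Spans were padded by 2 kb. Shares of bins were tested for all 21631 protein-coding genes by exact two-sided sign-flip permutation over 9 strains (512 patterns, smallest p 0.0039) with Benjamini-Hochberg adjustment, in Python 3.11.15 (matplotlib 3.10.9, scipy 1.17.1, numpy 2.4.6). The p-values measure spread between strains, which share ancestry. The genes and lists were chosen with earlier results of these data known. All 10 genes are named, the 4 most and 4 least divergent of 38 pathway genes, genes that overlap the 10, and marker genes. Alternatives covered padding, centring, gene sets, single-bin segments, matching rules and leaving out each strain.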

Additional observations from a re-analysis of the deposited data

Results flagged for a closer look

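In each set of 9 strain values of a gene, the highest or lowest strain is named here where its gap to the next strain, as a part of the whole range, passed Dixon's 95% limit for 9 values. Of 60 sets examined, 9 had such a strain, and the 9 fell in 6 of the 10 genes. For independent, normally distributed values, about 3 sets (1 in 20) would pass the limit. The values here come from counted bins with ties, and the sets of a gene depend on each other. Whether 9 is more than chance gives was therefore not tested.

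Pnpla3 had 4 of them. In PWK/PhJ its share of state 4 was 57.7%, with 0 to 11.5% in the other strains, its share outside state 14 was 83.1%, with 24.6 to 40.8% in the others, and its mean divergence from the other 8 strains was 64.2%, with 25.1 to 34.1% for the others. These 3 values come from the same bins. In C57BL/6J the share of state 3 in Pnpla3 was 3.85%, with 0 to 1.54% in the others.

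In Acly, CAST/EiJ had 2.87% of bins in state 3, with 1.79 to 2.15% in the others. In Me1, DBA/2J had 1.68% in state 3, with 0.505 to 1.01% in the others. Acaca diverged most in NOD/ShiLtJ, by 24.3%, with 19.01 to 20.9% for the others. WSB/EiJ had the lowest share outside state 14 in Scd1, 83.9%, with 92.0 to 100% in the others, and in Thrsp, 97.7%, with 100% in the others. The Thrsp value rests on 1 bin, and the flagged state 3 values on 8 bins in Acly, 10 in Me1 and 5 in Pnpla3.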

How the results depend on the processing

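No paired analysis was possible because the libraries of a strain are combined in 1 segmentation, so mice carry no values of their own. The counts of genes called higher in states 1, 2 and 4 and outside state 14 stayed within 1.5 times of those given under every alternative run. The share of all genes called higher did not: with centring on the median gene it was 46.5% in state 1, 33.1% in state 2 and 31.4% in state 4, where 10, 9 and 10 of the 10 genes were higher. With that centring, 9 genes were higher and 0 lower in state 3, and 0 were lower in state 1 and outside state 14. With all annotated genes as the set, 0 were lower in state 1, 2 in state 3 and 0 outside state 14. With padding of 10 kb, 0 were lower outside state 14. Leaving out each strain in turn, 1 to 2 genes were lower outside state 14, the 2 without PWK/PhJ, where Pnpla3 joined Me1.

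Of 50 combinations of gene and quantity, 30 kept direction and call throughout. In 11 the direction turned, and in 9 a call was lost or gained without a turn, such as state 4 of Srebf1 without padding (4.71 points, adjusted p = 0.056, exact permutation test). Centred on the median, the differences in points were 1.76 for Acly, 0.352 for Acaca, 0.742 for Me1, 1.39 for Scd1, 1.201 for Elovl6 and 0.843 for Pnpla3 in state 3, 3.50 for Me1 in state 1, 3.09 for Me1 and 2.65 for Pnpla3 in state 2, and 5.24 for Acaca outside state 14. With all annotated genes they were 0.375 for Acly in state 3 and 4.42 for Acaca outside state 14. With 10 kb of padding they were 0.876 for Acly and 0.445 for Pnpla3 in state 3, and without padding -0.865 for Thrsp in state 4. Centring on the median moves every gene up by the same amount within a quantity, because the median gene lies below the mean. The causes of the other turns were not tested. The state 3 call of Pnpla3 (adjusted p = 0.027, exact permutation test) was lost without A/J (0.053), and without CAST/EiJ, NOD/ShiLtJ or PWK/PhJ (0.052 each). That of Scd1 was gained without CAST/EiJ (0.044).

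The median divergence was 34.9% over bins outside state 14 in at least 1 strain and 22.3% with a match allowed within 1 bin, against 34.5 and 14.4% for all genes. It ranged from 26.3% without PWK/PhJ to 31.6% without 129S1/SvImJ. With states 13 and 14 merged it was 29.9%, against 12.2% for all genes. The files hold no reads, so depth sets no interval here.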

Other observations

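The share of state 14 in PWK/PhJ differed in direction between the 10 genes and all genes. Over all protein-coding genes PWK/PhJ had the highest mean, 61.2%, with 53.0 to 56.1% in the other strains. Over the 10 genes it had the lowest, 17.4%, with 20.6 to 28.1% in the others. Without Pnpla3 the mean was 17.5% in PWK/PhJ, within the 14.9 to 22.9% of the others. Both are descriptions with no test.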
